A study of Mus musculus with 10 samples.

Results

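Cohesin-bound Ctcf sites with no listed summit of the SWI/SNF subunits Arid1a and Brg1 nearby were examined in AB17 hepatocytes. A site entered the set when an autosomal Ctcf summit had a −log10 q-value of at least 20 and a Rad21 summit of at least 20 within 100 bp. In addition, no Arid1a or Brg1 summit was allowed within 1 kb. Of 91355 Ctcf summits, 89238 were autosomal and 16179 of these reached 20. Of those, 5669 had a strong Rad21 partner and are called anchors here, and 3828 anchors (67.5%, 95% Wilson interval 66.3 to 68.7) had no SWI/SNF summit within 1 kb and form the set described. The other 1841 anchors had Brg1 alone at 881 sites, Arid1a alone at 499 and both at 461. The sites were thus selected on measured Ctcf, Rad21, Arid1a and Brg1 summits, and those values are given only as a description. Without SWI/SNF means here without a listed Arid1a or Brg1 summit, which does not show that the proteins were absent. Other SWI/SNF subunits were not profiled.

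AB17 is a line of primary mouse hepatocytes from an Arid1a fl/fl animal, immortalized with SV40 large T antigen and then transduced with H-Ras V12D, so both genotypes share the floxed alleles and both transgenes. Wildtype (WT) cells received Ad-GFP, an adenovirus carrying GFP, and knockout (KO, Arid1a-/-) cells received Ad-Cre, which carries the recombinase that deletes the floxed exon. H3K9me3 and H3K27me3 were profiled by chromatin immunoprecipitation and sequencing (ChIP-seq) in both genotypes, and Arid1a, Brg1, Ctcf and Rad21 in WT cells. Each was a single library, so no value below has a replicate check, and intervals cover counting error only, although neighbouring summits are not independent. Whether the anchors themselves changed in KO cells was not measured. No expression values were analysed, so hepatocyte identity was not checked against transcripts.

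Ctcf is a zinc finger protein that binds an asymmetric DNA motif, and cohesin, a ring complex that contains Rad21, extrudes chromatin loops until it is halted at Ctcf. Loops form mostly between motifs that point toward each other, and the halted ring lies on the side toward which the motif points. SWI/SNF, with the ATPase Brg1 and the DNA-binding subunit Arid1a, slides and evicts nucleosomes. H3K27me3 is deposited by Polycomb and H3K9me3 marks heterochromatin.

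To show what these sites look like, the Ctcf motif is given in capitals within 50 bases, read 5′ to 3′ on the motif strand from the mm10 (GRCm38) reference. The motif was a matrix of 20 columns learned from 10510 strong Ctcf summits outside the anchors. Written with N wherever no base reached 60%, it read NCCANNAGNGGGCNNNNNNN, and it was searched on both strands. The first 3 sites belong to the 5 highest when sites are ranked by the smaller of their Ctcf and Rad21 values, and they lay at C130026I21Rik, at Spi1 and beside Nkx2-3. The fourth is another site at C130026I21Rik with H3K27me3 on a single flank.
C130026I21Rik, chr1:85114864-85114913, minus strand: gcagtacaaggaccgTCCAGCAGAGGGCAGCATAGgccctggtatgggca
Spi1, chr2:91115240-91115289, plus strand: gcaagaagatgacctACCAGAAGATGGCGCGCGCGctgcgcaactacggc
Nkx2-3, chr19:43624144-43624193, minus strand: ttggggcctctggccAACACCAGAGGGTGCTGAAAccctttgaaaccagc
C130026I21Rik, chr1:85243874-85243923, plus strand: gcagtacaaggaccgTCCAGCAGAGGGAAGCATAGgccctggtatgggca
The Ctcf summits at C130026I21Rik were 129005 bp apart, and their windows lay on opposite strands and differed at 1 of 50 bases, C13A, counted from the first base of the motif. The 101 bp around the second occurred 3 times on the autosomes, so reads from it could be split between copies.

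The next sequences are from the 3 strongest sites with H3K9me3 near them in both genotypes, followed by the 3 sites farthest from SWI/SNF.
Krt78, chr15:101973812-101973861, minus strand: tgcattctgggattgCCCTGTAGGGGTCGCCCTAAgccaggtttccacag
Syn3, chr10:86065003-86065052, plus strand: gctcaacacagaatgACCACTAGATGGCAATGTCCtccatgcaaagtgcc
Wsb1, chr11:79214105-79214154, minus strand: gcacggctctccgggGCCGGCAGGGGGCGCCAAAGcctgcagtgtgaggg
Fhit, chr14:9393638-9393687, plus strand: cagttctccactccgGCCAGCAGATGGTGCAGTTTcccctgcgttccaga
Nalcn, chr14:123371689-123371738, plus strand: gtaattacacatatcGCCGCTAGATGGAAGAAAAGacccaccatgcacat
Zfp536, chr7:37346186-37346235, minus strand: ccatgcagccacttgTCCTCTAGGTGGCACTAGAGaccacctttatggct
Of the 9 letters fixed in the consensus, the first of the sites at C130026I21Rik matched 9, that at Wsb1 matched 8, that at Fhit matched 7 and that at Nalcn matched 6.

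The last group belongs to sites at genes singled out by the study, Cdh5 and Pmp22, and at imprinted genes, Nnat (named by its neighbour Blcap), Plagl1 and Grb10.
Cdh5, chr8:104146475-104146524, plus strand: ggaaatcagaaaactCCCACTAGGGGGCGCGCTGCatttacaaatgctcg
Pmp22, chr11:63135777-63135826, minus strand: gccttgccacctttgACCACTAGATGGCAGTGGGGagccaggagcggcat
Blcap, chr2:157605195-157605244, plus strand: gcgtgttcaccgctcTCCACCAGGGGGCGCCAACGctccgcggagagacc
Plagl1, chr10:13087381-13087430, plus strand: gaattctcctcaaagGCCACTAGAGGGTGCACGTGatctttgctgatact
Grb10, chr11:11973585-11973634, minus strand: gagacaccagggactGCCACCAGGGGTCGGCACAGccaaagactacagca

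The Ctcf summits of the set had a median −log10 q-value of 49.8 (quartiles 39.1 and 62.5, range 20.4 to 235.9), and the paired Rad21 summits had a median of 30.1 (24.3 to 39.1, highest 125.6). At the anchors with SWI/SNF the medians were 56.8 and 32.4. The nearest SWI/SNF summit lay at a median of 7778 bp (quartiles 3313 and 16461), and the greatest distance was 709931 bp. The line drawn at 1 kb was set against weak neighbours. An Arid1a summit lay within 1 kb of 960 anchors and a Brg1 summit within 1 kb of 1342. The nearest such summits had medians of 2.70 and 2.67, and 6.04% and 7.38% reached 5. Around all anchors, Brg1 summits numbered 176 per kb per 1000 anchors within 200 bp and 55.1 at 2 to 5 kb. For Arid1a these densities were 124 and 45.2. Sites just inside the limit were those nearest Meioc, with Brg1 at 1001 bp, and Fam181b and Atp6v1b2, each with Brg1 at 1002 bp. Anchors just outside lay nearest Bcan and Mapkbp1, both at 1000 bp, and Kank1 at 995 bp. For the threshold of 20, the lowest sites kept had Rad21 values of 20.02 (Wnt7b), 20.05 (Tmcc3) and 20.16 (Alx4), and the highest left out had 19.97, 19.97 and 19.91.

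The share of anchors without SWI/SNF varied between autosomes. It was lowest on chromosome 19 (55.1%, 49.2 to 60.9) and chromosome 18 (55.9%), and highest on chromosome 13 (88.5%, 79.5 to 93.8) and chromosome 14 (85.2%, 74.3 to 92.0). Arid1a summits numbered 68.1 and 48.1 per Mb on chromosomes 19 and 18, and 5.82 and 3.77 per Mb on chromosomes 13 and 14. The density of the SWI/SNF lists thus moved with the share, and its part in the later differences was not tested beyond the values within autosomes given beside them.

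Ranked by the smaller of the Ctcf and Rad21 values, the highest site was in the promoter of C130026I21Rik, at position 85114904 of chromosome 1, with a Ctcf value of 218 and a Rad21 value of 126. Its nearest Arid1a and Brg1 summits were 18935 and 68649 bp away. Next came a site in an exon of Spi1, which encodes the myeloid transcription factor PU.1, with 150 for Ctcf and 125 for Rad21. Another site lay 7883 bp from Eif4b, a translation initiation factor gene, with 150 and 114, and a further site 16718 bp from C130026I21Rik had 212 and 111. Neither of these held a motif match within 50 bp. The fifth lay 8277 bp from Nkx2-3, a homeobox gene, with 132 and 107. The third strongest promoter site was at Lif, which encodes a cytokine of the interleukin 6 family, with 120 and 94.6 and no motif match. At Lif the Brg1 summit was 1182 bp away, just beyond the limit.

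To ask where the sites lie, each was annotated with GENCODE genes. A promoter was within 2 kb of a transcript start. In the set, 743 sites (19.4%, 18.2 to 20.7) were at promoters, against 34.9% (32.7 to 37.1) of anchors with SWI/SNF and 26.3% of all autosomal Ctcf summits. The difference was −15.5 percentage points (Newcombe interval −18.0 to −13.0), and the set was lower on 19 of 19 autosomes. Sites between genes made up 43.9% against 34.4%, introns 33.5% against 26.4% and exons 3.19% against 4.29%. Promoter location was most frequent, at 55.1%, where both Arid1a and Brg1 were present. The sites had a median GC content of 48.3% over 501 bp and a median CpG observed-to-expected ratio of 0.261, against 49.3% and 0.322 at anchors with SWI/SNF. Soft-masked repeats held 6.64% of the summits of the set and 6.57% of the others, a difference of 0.063 points (−1.37 to 1.40).

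Next, the Ctcf motif was compared. A match within 50 bp was present at 2870 sites (75.0%, 73.6 to 76.3), at 72.6% (70.5 to 74.6) of anchors with SWI/SNF and at 25.8% of all autosomal Ctcf summits. The threshold was the score that 1% of autosomal windows of the same length reached. The difference between both anchor groups was 2.35 points (−0.079 to 4.83), and the set was higher on 12 of 19 autosomes, while the interval included 0. It excluded 0 on the 10 autosomes with the denser Arid1a lists (4.59 points, 1.65 to 7.58), at the stricter motif threshold (4.25 points, 1.89 to 6.55) and with SWI/SNF excluded within 2 kb (2.46 points, 0.148 to 4.78). It included 0 at a threshold of 30 for Ctcf and Rad21 (2.52 points, −0.670 to 5.80) and with Rad21 within 50 bp (1.89 points, −0.800 to 4.67). The difference was 4.87 points (0.111 to 9.63) at promoters and 0.724 points (−2.12 to 3.67) away from them. Motifs lay on the plus strand at 1454 sites and on the minus strand at 1416.

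The Rad21 summit lay downstream of the motif more often than upstream. Measured along the motif strand, Rad21 summits had a median of 12.5 bp downstream of the motif centre (interval 10.5 to 13.5, quartiles −12.5 and 33.5), that is, toward the 3′ end. Rad21 was downstream at 1823 of 2870 sites (63.5%, 61.7 to 65.3). The Ctcf summit itself was centred, with a median of −0.5 bp and 49.8% downstream. The same displacement of 11.5 bp (8.5 to 13.5), with 63.5% downstream, was measured at anchors with SWI/SNF. At promoters of the set the median was 9.5 bp (5.5 to 13.5). At single sites the offset varied in sign, as at Syn3 (20.5 bp downstream), Cdh5 (16.5 bp downstream) and C130026I21Rik (25.5 bp upstream at the strongest site).

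**Figure D1:**
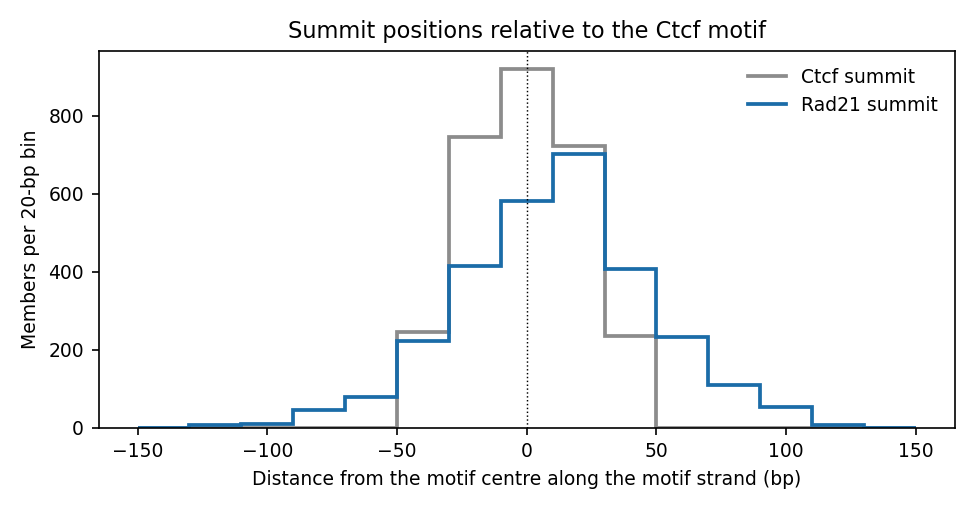
Number of sites without SWI/SNF per 20-bp bin (y axis) by the distance of their Ctcf summit (grey) and Rad21 summit (blue) from the motif centre along the motif strand (x axis, bp). The Ctcf summits are centred on 0, and the Rad21 summits are displaced to the right, with 1823 of 2870 downstream.

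H3K27me3 was found near many of the sites. In WT cells, 1805 sites (47.2%, 45.6 to 48.7) had an H3K27me3 summit within 5 kb, against 28.5% (26.4 to 30.6) of anchors with SWI/SNF and 28.8% of all autosomal Ctcf summits. The difference of 18.7 points (16.1 to 21.3) had the same direction on 19 of 19 autosomes. In KO cells the share was 40.0% (38.5 to 41.6) against 21.4% (19.6 to 23.3), with 23.6% of all autosomal Ctcf summits. That difference of 18.6 points (16.2 to 21.04) was also seen on 19 of 19 autosomes. At promoters the WT shares were 46.7% and 28.5%, and away from promoters 47.3% and 28.4%, so the difference was present in both strata. Among anchors with SWI/SNF the WT share was 32.9% (28.9 to 37.1) with Arid1a alone, 30.3% (27.4 to 33.4) with Brg1 alone and 20.2% (16.8 to 24.1) with both.

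H3K27me3 in both genotypes was more frequent than in a single one. It was present near 1431 sites (37.4%) in both genotypes, against 21.6% of all autosomal Ctcf summits. Of the 1805 sites near the mark in WT, 79.3% were also near it in KO, a share that was 70.6% at anchors with SWI/SNF and 74.9% over all autosomal Ctcf summits. It was near 374 sites (9.77%) in WT alone and near 102 (2.66%) in KO alone, where all Ctcf summits gave 7.22% and 1.96%. The autosomal H3K27me3 list was shorter in KO, with 85640 summits against 108777 in WT. Read depth is unknown, so fewer sites near the mark and a shorter list cannot be told apart. The strongest sites with the mark in both genotypes were those at C130026I21Rik (462 bp away in WT and 1571 bp in KO), Spi1 (1874 and 1125 bp) and Eif4b (1826 and 1458 bp).

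H3K9me3 went the other way between the anchor groups in WT cells. The set lay closer to all autosomal Ctcf summits than to the anchors with SWI/SNF. An H3K9me3 summit lay within 5 kb of 2038 sites (53.2%, 51.7 to 54.8), against 69.4% (67.2 to 71.4) of anchors with SWI/SNF and 56.0% of all autosomal Ctcf summits. The difference was −16.1 points (−18.7 to −13.5), and the set was lower on 19 of 19 autosomes. In KO cells the shares were 27.7% (26.3 to 29.2) and 30.3% (28.3 to 32.4), with 32.8% of all autosomal Ctcf summits. That difference was −2.59 points (−5.15 to −0.082), with the set higher on 10 autosomes and lower on 9, so no common direction was seen. The interval included 0 at a threshold of 30 for Ctcf and Rad21, on the 10 autosomes with the denser Arid1a lists, with marks counted within 1 kb and with mark summits of at least 5. Autosomal H3K9me3 summits numbered 141657 in the WT list and 131430 in the KO list. H3K9me3 was near 1358 sites in WT alone, near 381 in KO alone and near 680 in both. These were 35.5%, 9.95% and 17.8% of the set, against 33.6%, 10.4% and 22.4% of all autosomal Ctcf summits.

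Most H3K9me3 summits were weak, with medians of 2.64 in WT and 2.47 in KO. With summits of at least 5, the WT share was 1.70% in the set, and the difference from anchors with SWI/SNF was −1.13 points. Strong sites with the mark in both genotypes were near Krt78, a keratin gene (894 bp in WT, 947 bp in KO), at a promoter within Syn3, a synapsin gene (272 and 2622 bp), and near Wsb1, which encodes a SOCS box protein (958 and 1172 bp). Their nearest H3K9me3 values were 4.79, 1.41 and 2.26 in WT and 2.52, 4.47 and 3.09 in KO.

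**Figure D2:**
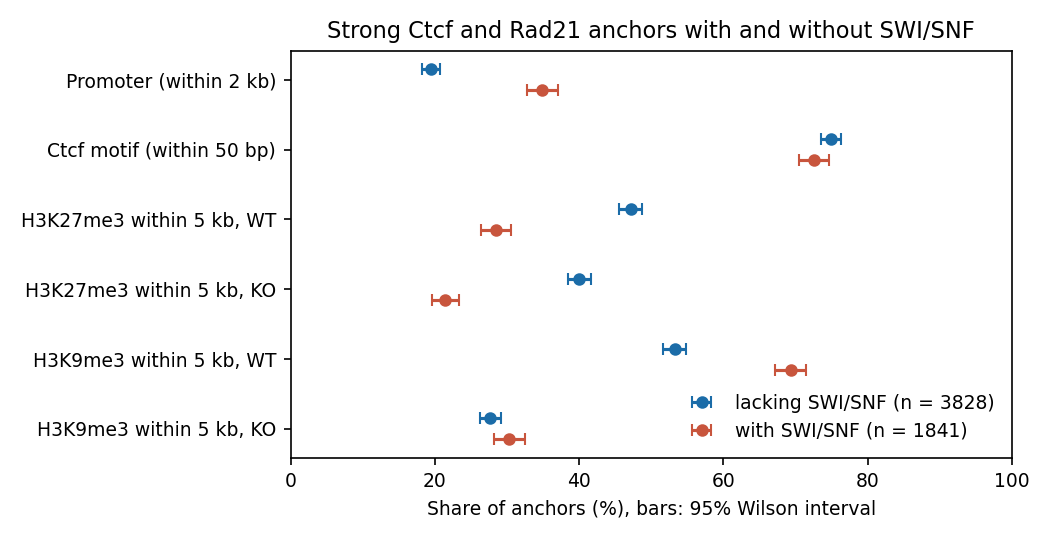
Share of anchors (x axis, %) at promoters, with a motif, and with each mark within 5 kb in WT or KO, for 3828 anchors lacking SWI/SNF (blue) and 1841 with it (red). Points are shares and bars 95% Wilson intervals. The largest separations are those of WT and KO H3K27me3, 18.7 and 18.6 points higher without SWI/SNF, and of WT H3K9me3 and promoters, 16.1 and 15.5 points lower.

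The marks also varied with distance to SWI/SNF. In WT cells H3K27me3 was near 34.6% (30.7 to 38.7) of sites whose nearest Arid1a or Brg1 summit lay 1 to 2 kb away, near 44.0% (40.7 to 47.4) at 5 to 10 kb and near 62.9% (58.8 to 66.8) at 20 to 50 kb. Beyond 50 kb it was near 65.2% (58.7 to 71.1) of 221 sites. In KO cells, the share went from 27.2% (23.6 to 31.1) at 1 to 2 kb to 63.8% (57.3 to 69.9) beyond 50 kb, where the intervals of the genotypes overlapped. WT H3K9me3 fell over the same classes from 61.2% (57.1 to 65.2) to 23.5% (18.4 to 29.5), and KO H3K9me3 lay between 22.4% and 29.8% in all of them. Promoter location moved with distance as well, from 29.2% at 1 to 2 kb to 16.7% beyond 50 kb. The density of the SWI/SNF lists differed between autosomes, and the distance classes were not computed within autosomes. The part of promoter location or of list density in the trend was not tested.

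**Figure D3:**
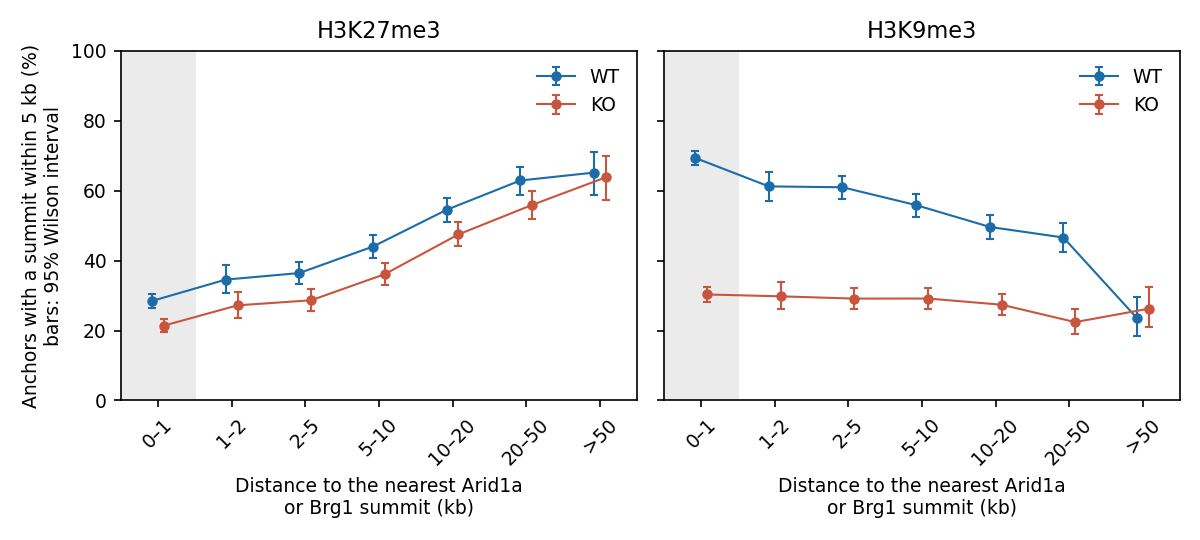
Share of anchors with an H3K27me3 (left) or H3K9me3 (right) summit within 5 kb (y axis, %) by the distance to the nearest Arid1a or Brg1 summit (x axis, kb), in WT (blue) and KO (red), with 95% Wilson intervals. Grey marks the 1841 anchors with SWI/SNF within 1 kb. H3K27me3 rises from 28.5% to 65.2% in WT and from 21.4% to 63.8% in KO, while WT H3K9me3 falls from 69.4% to 23.5%.

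The 3 sites farthest from SWI/SNF differed among themselves. That nearest Fhit, a tumour suppressor gene at a fragile site, was 709931 bp from the nearest Brg1 summit, and H3K27me3 was over 1 Mb away (1047419 bp in WT and 1047925 bp in KO). The site at a promoter within Nalcn, a sodium leak channel gene, had Arid1a at 359197 bp and H3K27me3 at 861117 bp in WT and 820078 bp in KO. The site 125953 bp from Zfp536, a zinc finger gene, had Brg1 at 304641 bp but H3K27me3 at 1612 bp in WT and 796 bp in KO. Rad21 was near the threshold at all 3, with 22.0, 20.9 and 20.9. The Fhit and Nalcn sites lay on chromosome 14, which had 3.77 Arid1a and 5.09 Brg1 summits per Mb. The Zfp536 site lay on chromosome 7, which had 19.6 Arid1a summits per Mb. The part of the sparse listing on chromosome 14 in the SWI/SNF distances was not tested.

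To ask whether the sites lie at edges of Polycomb regions, H3K27me3 summits were counted within 50 kb on each side. A site was called an edge when a side held at least 8 summits and the other at most 1. In WT cells 534 sites (13.9%, 12.9 to 15.1) were edges, against 14.1% (12.6 to 15.8) of anchors with SWI/SNF and 10.2% of all autosomal Ctcf summits. In KO cells 465 sites (12.1%, 11.2 to 13.2) were, against 10.5% of anchors with SWI/SNF and 8.19% of all autosomal Ctcf summits. The WT difference between the anchor groups was −0.17 points (−2.15 to 1.72), with the set higher on 9 autosomes and lower on 10. Sites with at least 8 summits on both sides separated the groups, at 13.3% (12.3 to 14.5) against 5.54% (4.59 to 6.68) in WT and 10.1% against 3.15% in KO. This share was not computed over all autosomal Ctcf summits, so which anchor group differs from them was not tested.

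The edges were then followed in KO cells. Of the 534 WT edges, 311 (58.2%, 54.0 to 62.3) were edges on the same side in KO, 0 were edges on the other side, 0 were marked on both sides and 10 had at most 1 summit on each side. The remaining 213 had intermediate counts. These shares were not computed for WT edges among anchors with SWI/SNF or among all autosomal Ctcf summits. Whether they differ in this set was thus not tested. On the marked side the KO library averaged 1.10 summits per 5 kb at 20 to 25 kb from the site, against 1.55 in WT. On the unmarked side, the KO average was 0.110 in the first 5 kb and at most 0.032 in the next 45 kb. The WT counts within 50 kb defined these edges, so the WT step at the site follows from the choice. The KO counts did not enter the choice, but no KO profile at edges of other Ctcf summits was made for comparison. At the strongest edge, in the promoter of C130026I21Rik, 11 WT summits lay to the left and 1 to the right, and 17 and 1 in KO. At the other C130026I21Rik edge the marked side was the opposite one, with 1 and 12 in WT and 2 and 21 in KO. The windows of these C130026I21Rik edges lay on opposite strands and differed at 1 of 50 bases, so they are not independent examples. Both motifs pointed toward the marked side, the less frequent direction among WT edges. The edge in an intron of Ppargc1b, a transcriptional coactivator gene, had 8 and 0 in both genotypes.

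**Figure D4:**
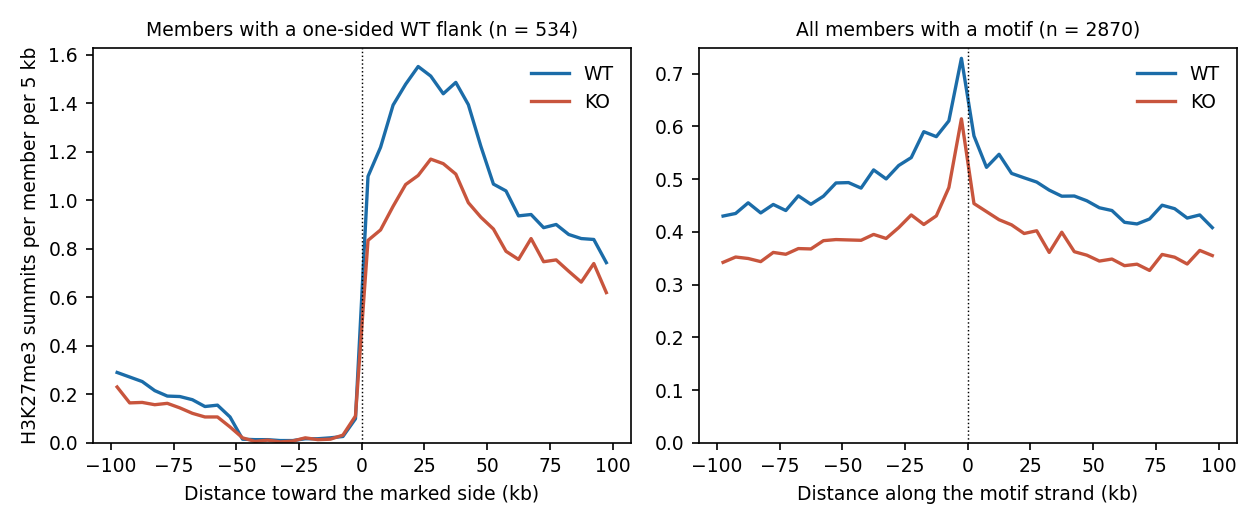
H3K27me3 summits per site in 5-kb bins (y axis) over 100 kb on each side (x axis, kb), in WT (blue) and KO (red). Left, the 534 WT edges turned so that the marked side is to the right. The choice of edges sets the WT step at 0, and KO follows it with a lower plateau (1.10 against 1.55 at 20 to 25 kb). Right, the 2870 sites with a motif, upstream to the left and downstream to the right, where the 5 kb upstream holds 0.729 (WT) and 0.614 (KO) summits per site against 0.582 and 0.454 downstream.

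The motif at the edges had a preferred direction. Of 422 WT edges with a motif, it pointed away from the marked side at 271 (64.2%, 59.5 to 68.6) and toward it at 151, and the share pointing away was over 50% on 18 of 19 autosomes. The exception was chromosome 5, with 15 of 31, and chromosomes 13 and 14 held only 2 and 1 edges. Away from promoters this was 219 of 335 (65.4%, 60.1 to 70.3), and at promoters 52 of 87 (59.8%, 49.3 to 69.4). For KO edges of the set it was 216 of 368 (58.7%, 53.6 to 63.6). At anchors with SWI/SNF the motif pointed away at 136 of 188 WT edges (72.3%, 65.5 to 78.2), and the intervals of the anchor groups overlapped. Over all sites of the set with a motif, 1162 had more WT H3K27me3 summits within 50 kb upstream and 919 had more downstream (55.8% upstream, 53.7 to 58.0). In KO these were 1071 and 820 (56.6%, 54.4 to 58.9). The same measure was higher at anchors with SWI/SNF, at 64.3% (61.0 to 67.4) in WT and 65.2% (61.7 to 68.6) in KO. H3K9me3 leaned slightly downstream in the set in WT, with more upstream at 47.7% (45.7 to 49.6) of sites, while the KO interval of 46.4 to 50.4 included 50%. The lean was stronger at anchors with SWI/SNF, with more upstream at 41.7% (38.9 to 44.5) in WT and 46.5% (43.7 to 49.4) in KO.

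Next, motif directions were compared between sites that follow each other along a chromosome. The 2851 pairs were 28.0% convergent (26.3 to 29.6), 44.2% tandem and 27.9% divergent, where independent strands would give 25%, 50% and 25%. Among the 140 pairs up to 20 kb apart, 4 were convergent (2.86%, 1.12 to 7.12), 59 tandem and 77 divergent (55.0%, 46.7 to 63.0). Within 100 kb, 44.6% (40.6 to 48.7) of 578 pairs were divergent and 21.8% (18.6 to 25.3) convergent. At 100 to 500 kb the order was turned, with 30.7% (28.1 to 33.3) of 1187 pairs convergent and 23.4% (21.1 to 25.9) divergent. Beyond 1000 kb the shares were 28.7% and 23.4%.

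Pairs that included an anchor with SWI/SNF were examined in the same way. Taking all anchors with a motif in order, neighbours that both had SWI/SNF and were up to 20 kb apart gave 1 convergent and 13 divergent of 32 pairs, and mixed neighbours gave 3 convergent of 109. At 100 to 500 kb the convergent shares were 34.1% (28.2 to 40.5) with SWI/SNF on both, 34.7% (31.5 to 38.1) for mixed neighbours and 32.5% (29.5 to 35.7) without it on either, and the intervals overlapped.

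**Figure D5:**
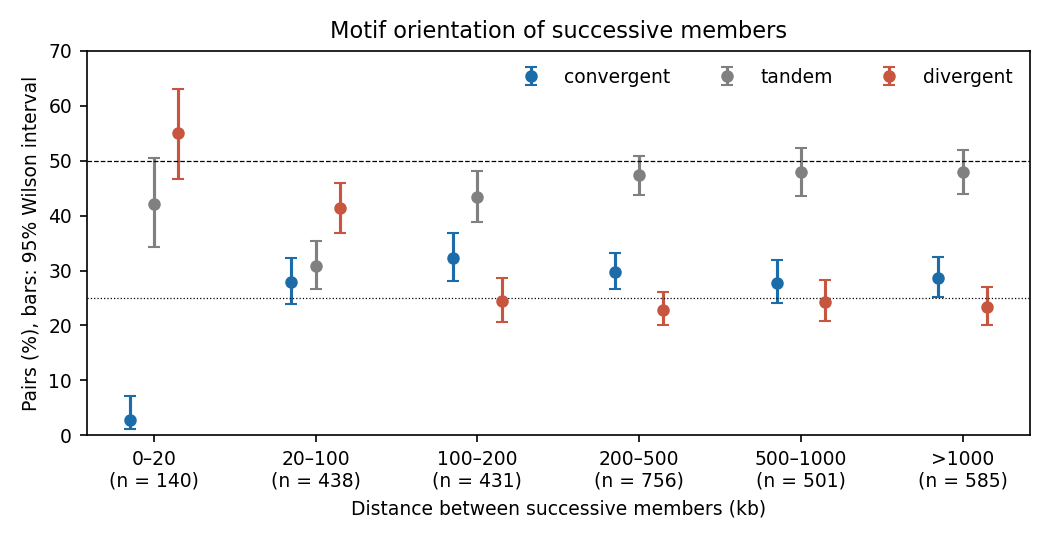
Share of successive pairs of sites without SWI/SNF (y axis, %) whose motifs are convergent (blue), tandem (grey) or divergent (red), by the distance between them (x axis, kb), with 95% Wilson intervals. The dotted and dashed lines mark the 25% and 50% given by independent strands. Convergent pairs are nearly absent up to 20 kb (4 of 140), and divergent pairs are the most frequent class up to 100 kb.

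The sites at genes of interest were counted within the gene body and 50 kb on each side. Of 20807 autosomal protein-coding genes, 6760 (32.5%) had at least 1 site of the set. Of the 10 genes singled out by the study, 7 had a site, which were Cdh5, Ctcf, Smarca4, Pmp22, Gsc, Atg10 and Rnf125, each with 1. Arid1a, Rad21 and Six2, a homeobox gene, had 0. These lists were drawn up with results of these data known, so the counts are descriptions.

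At Cdh5, which encodes the endothelial cadherin, the site lay 1993 bp outside the gene and 25449 bp from the nearest Arid1a summit. H3K27me3 was 27 bp from it in WT and 237 bp in KO, with 13 and 20 summits on its left and right within 50 kb in WT and 6 and 22 in KO. The site at Gsc, a homeobox gene of the early embryo, lay 25920 bp from Serpina3n, its nearest coding gene, with 5 and 20 summits in WT and 3 and 18 in KO. Both sites therefore lay inside or beside H3K27me3 in both genotypes.

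At Pmp22, a gene of a myelin membrane protein, the site was in an intron, with a Ctcf value of 78.8 and a Rad21 value of 52.5. Brg1 lay 2507 bp and Arid1a 4126 bp away, and the nearest H3K27me3 summit was 47573 bp away in WT and 60262 bp in KO. The site at Ctcf was in an exon of the neighbouring gene Gfod2, and that at Smarca4, the gene of Brg1, lay 6201 bp from Timm29. Neither had H3K27me3 within 100 kb in either genotype, the distances being 117208 and 267593 bp in WT and 114084 and 271488 bp in KO. Atg10, an autophagy enzyme gene, and Rnf125, a ubiquitin ligase gene, each held an intronic site, with Ctcf values of 35.3 and 26.96.

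Of 18 imprinted genes, 9 had a site without SWI/SNF. The interval of this share, 29.03% to 70.97%, included the 32.5% of all protein-coding genes. An anchor with SWI/SNF was near 1, Igf2r (5.56%, against 4013 of 20807 protein-coding genes, 19.3%), without an interval. Whether imprinted genes differ from other genes was thus not tested. The 9 with a site without SWI/SNF were Nnat, Gnas, H19, Igf2, Kcnq1ot1, Plagl1, Grb10, Trappc9 and Igf2r. Imprinted genes are expressed from a single parental allele. H19 and Igf2 shared 1 site, with a Ctcf value of 32.7 and a Rad21 value of 34.0, at position 142610717 of chromosome 7 and 40049 bp from Igf2. It had no motif match, and H3K27me3 lay 793 bp away in WT and 7553 bp in KO. The Kcnq1ot1 site, in an intron of Kcnq1, had 30.3 and 36.5, also without a motif match. Plagl1, a zinc finger growth regulator, held a site with 63.7 and 30.5, and 12 and 4 H3K27me3 summits on its left and right in WT against 14 and 2 in KO. The Grb10 site, in an adaptor protein gene, lay 1341 bp from Brg1, close to the limit.

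In the cohesin list, 3 of 12 genes had a site, at Ctcf, at Esco1 (a cohesin acetyltransferase) and at Smc3 (a cohesin ring subunit). In the SWI/SNF list 4 of 15 did, which were Actl6a, Smarcd3, Smarca4 and Smarcc2. Among growth control genes 3 of 8 did, Ccnd1 (cyclin D1), Mdm2 and Trp53 (p53). Among 14 hepatocyte genes 2 did, Hnf4a with 1 and Apob with 2. These shares were 25%, 26.7%, 37.5% and 14.3%, and each interval included the 32.5% of all protein-coding genes. In the same order, an anchor with SWI/SNF was near 41.7%, 33.3%, 50% and 21.4% of the genes, against 19.3% of all protein-coding genes. For the 10 genes singled out by the study it was 30%. Whether any of these lists differs from other genes was not tested. Several hepatocyte genes without a site held many H3K27me3 summits in their 50-kb surroundings, such as Alb (24 in WT, 10 in KO) and Afp (31 and 17). For Hox genes the picture was set by 4 distinct sites near 22 of 39 genes (56.4%, 41.0 to 70.7). An anchor with SWI/SNF was near 38 of the 39 (97.4%), against 19.3% of all protein-coding genes. The Hox genes lie in clusters and share these anchors.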

How the data were processed

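ChIP-seq summit lists of 8 of the 10 samples were used, and the 2 inputs served only as the background of peak calling. The authors aligned reads to mm10 with bowtie2, filtered them with SAMtools and Picard and called peaks with MACS2 against input. Tool versions are not given in the sources used here. Each deposited list gives a summit and its −log10 q-value, a unit read from the values, which start at 1.30. Depth is unknown, and peak widths and fold enrichment were not used here.

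Groups followed antibody and genotype. With 1 library per group no test was made. Shares have 95% Wilson intervals and differences Newcombe intervals. Python 3.11.15, NumPy 2.4.6, pandas 2.3.3 and GENCODE vM21 were used, and chromosome X was left out. Counting and motif search were tested on simulated data. The members and gene lists were chosen with earlier results of these data known. Named sites were the highest by the smaller of the Ctcf and Rad21 values (5 in all, 3 per class), the 3 farthest from SWI/SNF, those nearest each limit, and the strongest at each study, imprinted and cohesin gene. The nearest protein-coding gene names a site. Those on chromosome 18 and in UTRs have no sequence shown, and 1 hepatocyte gene was not matched.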

Additional observations from a re-analysis of the deposited data

Results flagged for a closer look

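Chromosome X stood outside the comparisons, which used autosomes. It held 36 Ctcf and Rad21 anchors of the same strength, of which 35 (97.2%, 85.8 to 99.5) had no Arid1a or Brg1 summit within 1 kb. The result was singled out because it lies in data that no comparison used. The chromosome had 218 Arid1a and 273 Brg1 summits in all. The part of this sparse listing in the share was not tested.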

How the results depend on the processing

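Of 119 recomputed values for 20 results, 79 stayed within the interval of the reported value or, for the count of sites, within 1.5 times it (3284 with SWI/SNF excluded within 2 kb, 2777 with Rad21 within 50 bp), 40 moved and 0 reversed. No paired analysis was possible because each group was a single library. For the same reason no replicate could be left out. The motif direction at WT edges and the orientation of neighbouring sites were among the 79 under every alternative run for them. Depth was unknown, so shares near a mark depend on how many summits were listed.

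At a threshold of 30 the set held 1907 sites, 64.5% of anchors, with a motif at 77.2%, WT H3K27me3 at 48.9%, WT H3K9me3 at 57.1%, KO H3K9me3 at 29.6% and WT edges at 15.4%. With SWI/SNF excluded within 2 kb, 57.9% of anchors remained, 17.8% at promoters, with H3K27me3 at 49.2% in WT and 42.2% in KO. On the 10 autosomes with the denser Arid1a lists the set held 2368 sites, 64.1% of anchors, with a motif at 76.4%, H3K27me3 at 50.4% in WT and 43.1% in KO, a WT H3K27me3 difference of 21.4 points and WT edges at 15.3%.

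With Rad21 within 50 bp, which narrows the offset by construction, a motif was at 78.8%, the offset was 7.5 bp and 60.3% lay downstream. The stricter motif threshold gave a motif at 25.6% and Rad21 downstream at 65.7%. Promoters within 5 kb gave 37.0%, and flanks of 20 kb gave edges at 4.86%. Away from promoters WT H3K9me3 was at 51.2%.

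Marks within 1 kb gave H3K27me3 at 17.8% in WT and 13.0% in KO, with differences of 8.66 and 7.09 points, and H3K9me3 at 18.8% and 5.02%. Mark summits of at least 5 gave H3K27me3 at 16.01% and 14.0%, with differences of 7.32 and 8.14 points, and H3K9me3 at 1.70% and 1.28%, with differences of −1.13 and −0.024 points. The last interval, −0.725 to 0.566, included 0. So did that of the KO H3K9me3 difference with marks within 1 kb (−0.090 points, −1.37 to 1.09), at a threshold of 30 (−2.14 points, −5.65 to 1.31) and on the denser autosomes (−2.57 points, −5.68 to 0.497). The shares standardised to the chromosome makeup of the set and those away from promoters were added after seeing the data.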
